A study of Mus musculus with 6 samples.

Results

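The Toll-like receptors (TLRs) are pattern recognition receptors of innate immune cells, and 10 of their genes, of 32287 features in the gene matrix, are described here: Tlr1, Tlr2, Tlr4 and Tlr6, whose proteins sit mainly at the cell surface, and Tlr3, Tlr7, Tlr8, Tlr9, Tlr11 and Tlr13, whose proteins sit mainly in endosomes. The genes were chosen by name and by where the protein resides. Tlr5 and Tlr12 are also in the matrix and are kept apart from all counts of members.

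The cells were CD11b hi TOM+ cells sorted from the inguinal lymph nodes of CD169Tom mice, which carry 1 Cd169Cre allele and a floxed tdTomato reporter, on a C57BL/6J background and over 6 weeks of age. Unimmunized mice 1 and 2 and immunized mice 1 and 2 shared this genotype, and the immunized mice had been given hen egg lysozyme (HEL) 9 days earlier. The study describes a subcutaneous HEL-OVA injection in Sigma Adjuvant System for mice that had received OT-II and SWHEL cells, and the sources used here do not say whether the immunized mice of this experiment were treated in that way. Cre under the control of Cd169 (Siglec1) leaves tdTomato in any cell that has switched the locus on and in its progeny, so the reporter marks a history of expression and not 1 cell type. Each mouse carried its own hashtag antibody, the 4 mice were pooled, and the pool was run as 2 captures of a single-cell 3′ assay with unique molecular identifiers (UMIs), which count each tagged transcript once whatever its length.

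TLRs bind conserved microbial molecules and signal through the adaptor MyD88, except TLR3, which uses TRIF, and TLR4, which uses both. TLR2 pairs with TLR1 or TLR6 to bind bacterial lipopeptides, and TLR4 binds lipopolysaccharide. The endosomal receptors depend on the chaperone UNC93B1 for their transport and on lysosomal proteases for their maturation, and most bind nucleic acids: TLR3 double-stranded RNA, TLR7 and TLR8 single-stranded RNA, TLR9 unmethylated CpG DNA and TLR13 bacterial ribosomal RNA, while TLR11 binds the profilin of Toxoplasma. In lymph nodes, macrophages that line the sinuses and dendritic cells (DCs) are among the cells that meet such ligands first.

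Of 18662 barcodes, 12139 were kept and assigned to a mouse (2828 and 537 cells of unimmunized mice 1 and 2, 4052 and 4722 of immunized mice 1 and 2), with median depths of 5877 to 12728 UMIs per cell. Marker genes, none of them a TLR, placed 7900 cells (65.1%) in 16 gates, and UMIs were summed per mouse and gate into 57 libraries of at least 10 cells. The gates were medullary sinus macrophages (MSM), C1q macrophages, a C1q macrophage subset with markers of tingible body macrophages (TBM-like), inflammatory macrophages, interferon-high, nonclassical and classical monocytes, monocyte-derived DCs, type 1 and type 2 conventional DCs (cDC1, cDC2), migratory DCs, neutrophils, B cells, innate-like T cells, alpha-beta T cells and NK cells. All listed markers of every gate were above 0 in that gate, which largely follows from gating on those markers and is no check of the gate names. Itgam (CD11b), for which the cells were sorted, ranged from 8.94 counts per 1000000 UMIs (CPM) in alpha-beta T cells to 312 CPM in neutrophils. Siglec1, whose locus drives Cre, ranged from 2.98 CPM in alpha-beta T cells to 43.5 CPM in inflammatory macrophages. C1qa, which defines C1q macrophages at 2142 CPM, stood at 29.2 to 101 CPM in the 4 lymphoid gates. The TBM-like and inflammatory macrophage gates reached 10 cells only in the immunized mice. Some small libraries stand apart and are named wherever they bear on a value. The MSM libraries of unimmunized mouse 2 (15 cells, 37451 UMIs) and immunized mouse 2 (10 cells, 23446 UMIs) were so shallow that 3 UMIs equal 80.1 and 128 CPM. The cDC1 library of immunized mouse 2 (21 cells) had 844 CPM of the summed cDC1 markers against 1742 to 2040 CPM in the other 3 mice, and 88.7 CPM of the inflammatory macrophage markers against 4.25 to 16.5 CPM. The neutrophil library of immunized mouse 2 (10 cells) had 64310 CPM of the neutrophil markers, against 112600 CPM in immunized mouse 1 and 126000 CPM in unimmunized mouse 1. Its C1qa, C1qb and C1qc summed to 1112 CPM, against 214.5 and 539.2 CPM in those mice.

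Upstream sequences are shown for 4 of the members called higher in the cell type contrasts described next: Tlr3 and Tlr11 in cDC1, Tlr13 in nonclassical monocytes and neutrophils, and Tlr2 in inflammatory macrophages. Each is the 250 bases before the RefSeq start of the gene in GRCm38.p6, in the direction of transcription. RefSeq promoters were matched for 8 of the 10 members. Tlr4 and Tlr7 had none, so Tlr7, the member with the smallest adjusted p in nonclassical monocytes, is not shown. Capitals mark a match, on either strand, to 1 of 4 motifs searched: an interferon-stimulated response element (GAAA, any 2 bases, GAAA), AP-1 (TGANTCA), PU.1 (GAGGAAGT) and NF-kappaB (GGG, any 2 bases, TTTCC).
Tlr3, chr8:45410381-45410630, minus strand: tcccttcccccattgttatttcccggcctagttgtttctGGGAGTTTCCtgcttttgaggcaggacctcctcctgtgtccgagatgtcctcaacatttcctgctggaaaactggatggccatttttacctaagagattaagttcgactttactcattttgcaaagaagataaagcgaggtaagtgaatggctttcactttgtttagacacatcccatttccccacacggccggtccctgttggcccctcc
Tlr11, chr14:50357664-50357913, plus strand: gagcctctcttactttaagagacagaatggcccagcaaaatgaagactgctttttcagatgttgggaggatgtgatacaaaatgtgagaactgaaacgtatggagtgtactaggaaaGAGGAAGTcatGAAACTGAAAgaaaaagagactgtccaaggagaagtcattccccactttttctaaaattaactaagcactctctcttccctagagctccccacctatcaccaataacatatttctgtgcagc
Tlr13, chrX:106143025-106143274, plus strand: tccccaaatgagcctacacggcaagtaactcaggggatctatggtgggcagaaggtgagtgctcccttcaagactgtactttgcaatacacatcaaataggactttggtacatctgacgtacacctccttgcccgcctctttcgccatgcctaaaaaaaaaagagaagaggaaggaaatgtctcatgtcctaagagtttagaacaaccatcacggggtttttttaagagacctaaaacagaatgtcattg
Tlr2, chr3:83841609-83841858, minus strand: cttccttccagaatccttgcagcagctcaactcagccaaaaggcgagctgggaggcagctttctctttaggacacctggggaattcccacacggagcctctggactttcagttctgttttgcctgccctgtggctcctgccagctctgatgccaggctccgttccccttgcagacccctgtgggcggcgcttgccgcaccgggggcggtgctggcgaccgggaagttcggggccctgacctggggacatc
The RefSeq starts differ from the gene bounds of the annotation used for positions. By those bounds the Tlr3 window lies inside the gene (45395665 to 45411080). The windows of Tlr2 (gene end 83841767) and Tlr13 (gene start 106143204) lie in part inside theirs. The Tlr3 window held 1 NF-kappaB match, and the Tlr11 window held 1 PU.1 and 1 interferon-stimulated response element match that did not overlap. None of the 4 motifs was spelled out in the Tlr13 or Tlr2 window. Among the 8 matched members the interferon-stimulated response element was found in 2, where 2.98% of 32851 mouse promoters of the same length held it, PU.1 in 2 (2.44%), AP-1 in 1 (6.75%) and NF-kappaB in 1 (1.41%). A match is a run of letters and was not tested as a binding site. Tlr1 and Tlr6 lie 18468 bases apart on the minus strand of chromosome 5, and Tlr7 and Tlr8 lie 40600 bases apart on the minus strand of chromosome X, which also carries Tlr13.

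The members were distributed unevenly over the gates. Each cell type was compared, in the immunized mice, with the mean of the fitted log levels of the other 15 types at equal weight. Gates with few or no UMIs of a member pull this mean down. Neutrophils and NK cells do so for Tlr11, with 0 UMIs in both immunized mice. A higher call can therefore fall on a gate whose level is middling among the 16. Here 54 of 144 pairs of member and cell type passed an adjusted p of 0.05 (edgeR), 44 of them higher and 10 lower. An unadjusted p under 0.05 was found for 68 pairs. Tlr9 had too few UMIs to be tested, so the counts rest on the other 9 members. Of all 10794 genes, 1.61% (monocyte-derived DCs) to 20.7% (migratory DCs) were called higher in a gate, and 0.0463% to 10.4% lower. Per gate, 1082 to 4250 of all genes had an unadjusted p under 0.05. When the reference was instead all other cells of the same mouse summed to 1 library, which weights the abundant macrophages and monocytes most, 3 of the 44 higher pairs were still called (Tlr3 and Tlr11 in cDC1 and Tlr7 in nonclassical monocytes) and all 10 lower pairs were. A higher call in a macrophage or monocyte gate is therefore a call against an average in which lymphoid cells and DCs weigh as much as myeloid cells. The heatmap of levels shows all 10 members in every library.

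**Figure D1:**
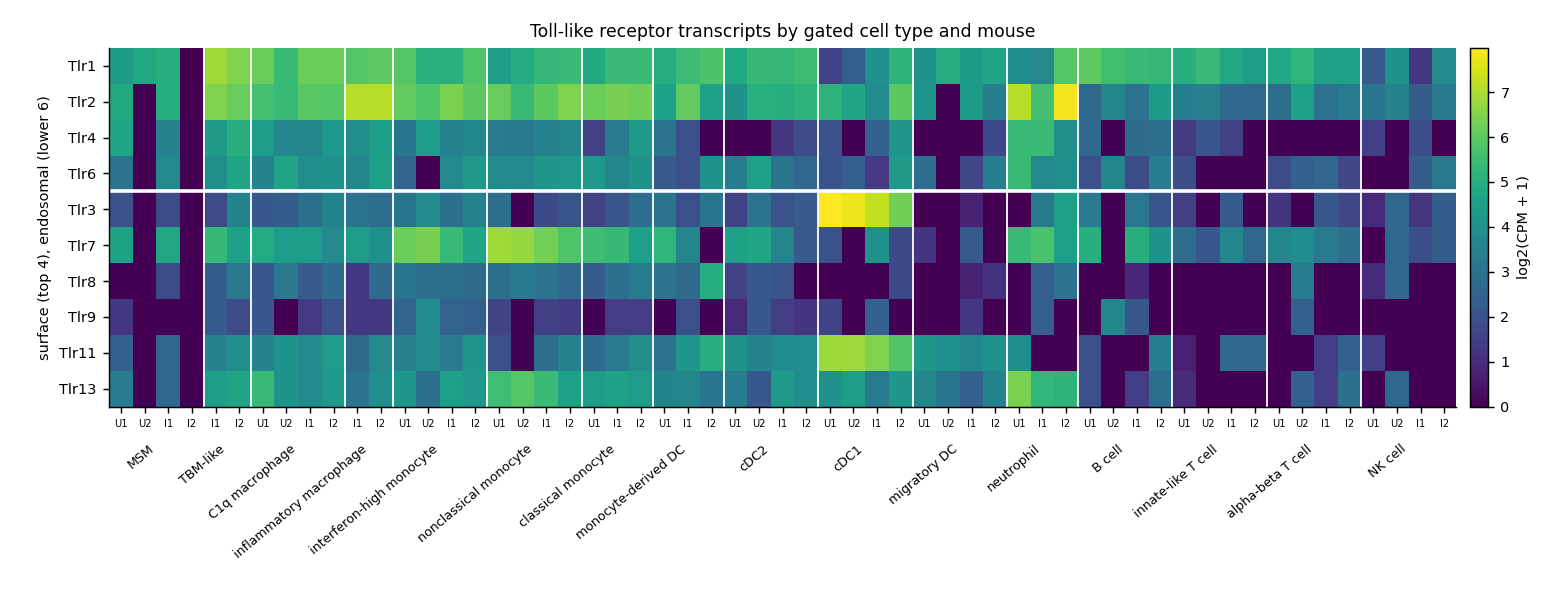
Level of each TLR gene (surface genes above the white line, endosomal below) in each mouse and marker gate, as log2(CPM + 1) in colour; U1 and U2 are unimmunized mice 1 and 2, I1 and I2 immunized mice 1 and 2. Among the bright cells are Tlr3 and Tlr11 in cDC1 (55.1 to 252 CPM), Tlr7 in nonclassical monocytes, Tlr1 in TBM-like cells (86.5 to 115 CPM) and Tlr2 in inflammatory macrophages and neutrophils, and the lymphoid gates are dark for most genes other than Tlr1.

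Tlr3 and Tlr11 were cDC1 genes in these libraries. Tlr3 (chromosome 8, 45395665 to 45411080, minus strand, GRCm38; overlapped by Gm45542 on the other strand, with stranded counting) stood at 252 and 217 CPM in cDC1 of unimmunized mice 1 and 2 and at 151 and 76.7 CPM in cDC1 of immunized mice 1 and 2. The next highest library was that of neutrophils of immunized mouse 2, at 21.5 CPM (3 UMIs), so cDC1 did not overlap with any other gate. In the immunized mice Tlr3 was higher in cDC1 than in the mean of the other types by 4.83 ± 0.28 (log2 fold change ± SE, n = 2 mice, adjusted p = 3.38e-17, edgeR quasi-likelihood test), and the call held in all 16 alternatives that could be computed. Tlr11 (chromosome 14, 50357914 to 50363663, plus strand) stood at 108 and 111 CPM in cDC1 of the unimmunized mice and at 85.5 and 55.1 CPM in cDC1 of the immunized mice. All 4 values lay above every other library, of which the highest was monocyte-derived DCs of immunized mouse 2 at 30.6 CPM (4 UMIs). The log2 fold change of Tlr11 in cDC1 was 3.92 ± 0.35 (adjusted p = 2.81e-11). With each cell thinned to 1000 UMIs it was -2.47 (adjusted p = 1), since no Tlr11 UMI was left in the immunized cDC1. Of all genes tested, 6.95% were called higher in cDC1, against 2 of 9 members.

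Per cell, a Tlr3 UMI was found in 81.0% and 70.6% of cDC1 of the unimmunized mice and in 70.0% and 47.6% of cDC1 of the immunized mice, at median depths of 15759 to 19505 UMIs. In NK cells, taken as the background, the share was 0.578% to 3.12% at 5109 to 6462 UMIs. After thinning every cell to 1000 UMIs the cDC1 shares were 20.6% and 5.88% in the unimmunized mice, the immunized mice had 15% and 4.76%, and no thinned NK cell held a Tlr3 UMI. The shares for Tlr11 in cDC1 were 52.4% to 68.2% before thinning. After it they were 6.35% and 11.8% in the unimmunized mice, and none of the 40 and 21 immunized cDC1 held a Tlr11 UMI.

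In the cDC1 library of immunized mouse 2, the markers used for the gate were low together with Tlr3 and Tlr11. Xcr1, the chemokine receptor that defines cDC1, was at 185 CPM there and at 532 to 611 CPM in the other mice, while Lyz2, a myeloid lysozyme gene, was at 5840 CPM against 1769 to 2701 CPM. Tlr3 UMIs per Xcr1 UMI were 0.413 and 0.408 in the unimmunized mice and 0.264 and 0.416 in the immunized mice. With every gate asking for 1 marker more, a setting chosen after these values were seen, cDC1 held 58 and 19 cells of the unimmunized and 34 and 9 cells of the immunized mice. Cells that had met a further gate can enter cDC1 under this setting. The 9 cells of immunized mouse 2 carried 174 CPM of Tlr3 and 89.9 CPM of Tlr11, against 166 and 90.4 CPM in immunized mouse 1. Both were below the unimmunized values under the same setting, 251 and 265 CPM for Tlr3 and 113 and 133 CPM for Tlr11.

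Among the other DC gates, Tlr11 was called in cDC2 (1.37 ± 0.45, adjusted p = 0.0466) and in migratory DCs (1.53 ± 0.49, adjusted p = 0.014), at 13.6 and 14.2 CPM and at 11.8 and 15.8 CPM in immunized mice 1 and 2. Without immunized mouse 1 these were 1.48 (adjusted p = 0.542) and 1.87 (adjusted p = 0.129), and the cDC2 call was also lost without either unimmunized mouse (adjusted p = 0.109 and 0.0992). Tlr13 was also called in cDC2 (1.45 ± 0.40, adjusted p = 0.0116; 0.619 without immunized mouse 1), which made 2 members higher there where 7.95% of all genes were. In migratory DCs, 1 member was higher (background 20.7%) and 2 were lower (background 10.4%). Tlr3 had 1 and 0 UMIs there in the immunized mice and none in either unimmunized mouse, and Tlr7 had 5 and 0 UMIs in the immunized mice. The fitted values were -3.30 ± 0.98 for Tlr3 (adjusted p = 0.00757) and -2.65 ± 0.67 for Tlr7 (adjusted p = 0.0017). Both calls were lost without immunized mouse 1 (adjusted p = 1 for each), and that of Tlr3 also without immunized mouse 2 (adjusted p = 0.0969). No member was called in monocyte-derived DCs, the thinnest of the DC gates in immunized mouse 2 (11 cells), where 1.61% of all genes were called higher.

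**Figure D2:**
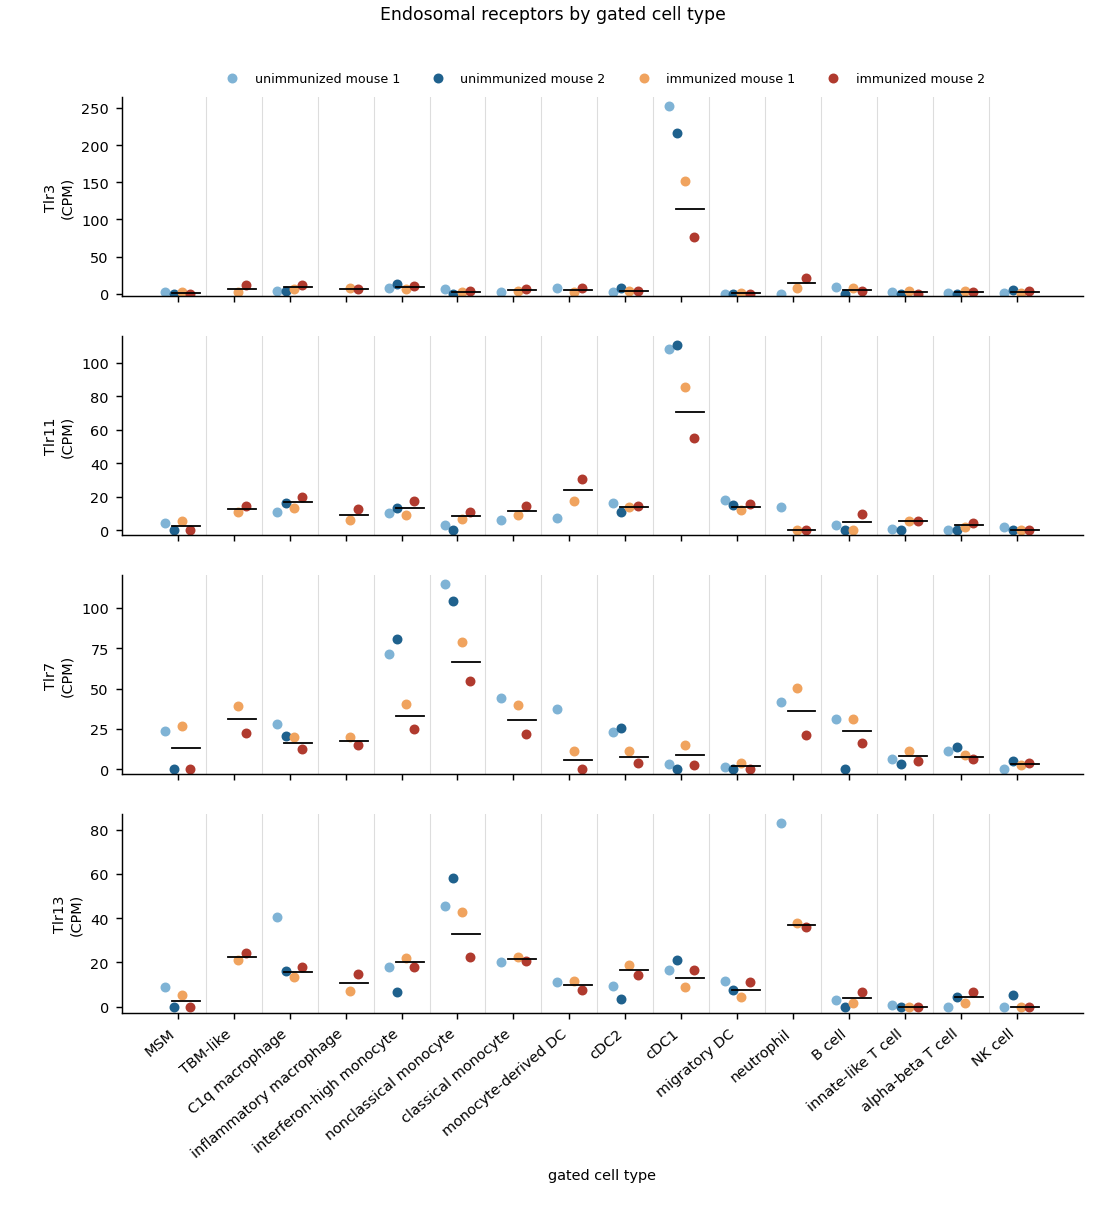
Levels of Tlr3, Tlr11, Tlr7 and Tlr13 in CPM, 1 point per mouse (colour) in each marker gate, with the mean of the immunized mice as a black line. Tlr3 in cDC1 reaches 76.7 to 252 CPM and Tlr7 in nonclassical monocytes 54.7 to 115 CPM, and in both the immunized points lie below the unimmunized ones.

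Tlr7 was the leading endosomal gene of nonclassical monocytes, the patrolling monocyte subset marked by Ace and Treml4. It stood at 115 and 104 CPM in the unimmunized mice and at 78.9 and 54.7 CPM in the immunized mice, and the groups did not overlap. Neutrophils came next by the mean of the immunized mice, at 50.5 and 21.5 CPM (12 and 3 UMIs), below nonclassical monocytes in both. Interferon-high monocytes held 71.2 and 80.5 CPM in the unimmunized and 40.7 and 25.2 CPM in the immunized mice, and classical monocytes held 39.7 and 21.8 CPM in the immunized mice. Nonclassical monocytes were above interferon-high monocytes in each of the 4 mice, with the log2 fold change of Tlr7 against all other types at 2.31 ± 0.26 (adjusted p = 4.85e-09), a call that held in all 18 alternatives. The calls in interferon-high monocytes (1.27 ± 0.28, adjusted p = 0.000975) and classical monocytes (1.13 ± 0.27, adjusted p = 0.00269) were lost only with the summed reference. A Tlr7 UMI was found in 54.7%, 54.8%, 48.8% and 43.4% of nonclassical monocytes, at median depths of 7021 to 11282 UMIs, and in 0% to 3.12% of NK cells. Thinned to 1000 UMIs per cell, the shares in nonclassical monocytes were 14.5%, 3.23%, 7.88% and 6.58%.

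Tlr13 had its highest immunized means in neutrophils and nonclassical monocytes, but neither gate lay above the next in both immunized mice. In nonclassical monocytes it stood at 45.6 and 58.3 CPM in the unimmunized and at 42.9 and 22.5 CPM in the immunized mice, which did not overlap. In neutrophils the 3 libraries held 83.0 CPM (unimmunized mouse 1, 6 UMIs) and 37.9 and 35.9 CPM (immunized mice, 9 and 5 UMIs). TBM-like cells held 21.1 and 24.2 CPM and classical monocytes 22.5 and 20.5 CPM in immunized mice 1 and 2. Nonclassical monocytes were thus above TBM-like cells in immunized mouse 1 and below them in immunized mouse 2. With the summed reference Tlr13 was called higher in neither neutrophils nor nonclassical monocytes. The log2 fold changes were 2.45 ± 0.31 in nonclassical monocytes (adjusted p = 8.55e-08) and 2.65 ± 0.60 in neutrophils (adjusted p = 0.00216), and without immunized mouse 1 they were 2.07 (adjusted p = 0.0501) and 2.83 (adjusted p = 0.199). Tlr13 was called higher in TBM-like cells (1.85 ± 0.38), classical monocytes (1.79 ± 0.32), interferon-high monocytes (1.72 ± 0.34) and C1q macrophages (1.33 ± 0.34) as well. The last of these fell short without either immunized mouse (adjusted p = 0.102 without mouse 1 and 0.0573 without mouse 2), and the call in interferon-high monocytes did so without mouse 1 (adjusted p = 0.13).

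Tlr8 was low throughout, with no library of more than 10 Tlr8 UMIs above 8.49 CPM, yet its signal was myeloid. It was called higher in 6 gates, all macrophages or monocytes. Log2 fold changes ran from 1.59 ± 0.56 in inflammatory macrophages (adjusted p = 0.0473) to 2.22 ± 0.49 in classical monocytes (adjusted p = 0.00146). Inflammatory macrophages held only 1.45 and 5.75 CPM in immunized mice 1 and 2, rank 8 by immunized mean. Their reference is pulled down by NK cells and both T cell gates, with 0 Tlr8 UMIs in both immunized mice. The highest immunized mean was that of monocyte-derived DCs, at 5.77 and 30.6 CPM (2 and 4 UMIs). Their log2 fold change of 3.07 ± 0.91 did not pass (adjusted p = 0.0854, edgeR). Without immunized mouse 1 the call in classical monocytes held and the other 5 were lost, with adjusted p from 0.0518 to 0.357. Without immunized mouse 2 Tlr8 had too few UMIs to be tested. In the 4 lymphoid gates Tlr8 had at most 2 UMIs in a library. Tlr9 was lower still. Its UMIs numbered 46 in the largest library, C1q macrophages of immunized mouse 2 (2.93 CPM), and 15 and 17 in interferon-high monocytes of the immunized mice (4.85 and 4.28 CPM). No NK or innate-like T library held a Tlr9 UMI, and in B cells, which use TLR9 to respond to DNA, there were 4 UMIs in 149 cells of immunized mouse 1 and none in 39 cells of immunized mouse 2, where 3 UMIs would equal 9.68 CPM. Plasmacytoid DCs, another cell known for TLR9 and TLR7, could not be described, since 3 cells passed that gate.

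Among the surface receptors, Tlr2 was the most abundant in inflammatory macrophages, which are gated on Nos2, Acod1, Inhba, Ptgs2 and Il1a. It stood there at 139 CPM in each immunized mouse (139 ± 0.236 CPM, SD, n = 2). Neutrophils held 138 CPM in unimmunized mouse 1 and 46.3 and 230 CPM in the immunized mice, a spread that covers the inflammatory macrophages. The 230 CPM belong to the library of 10 cells with fewer neutrophil markers and more C1q transcripts. Between 58.1 and 86.3 CPM were found in the immunized C1q macrophages, TBM-like cells and all 3 monocyte gates, and between 4.17 and 19.4 CPM in the immunized lymphoid libraries. The log2 fold change of Tlr2 was 2.27 ± 0.23 in inflammatory macrophages (adjusted p = 4.4e-10), where 5 of 9 members were called higher against 12.2% of all genes. It was 2.03 ± 0.41 in neutrophils (adjusted p = 0.000445), and 0.82 (adjusted p = 0.571) without immunized mouse 2. A Tlr2 UMI was found in 30 of 60 and 479 of 646 (74.2%) inflammatory macrophages of immunized mice 1 and 2, at median depths of 11438 and 15054 UMIs, and in 10.0% and 11.9% after thinning. In NK cells of the same mice the shares were 2.46% and 6.25%, and 0% after thinning.

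Tlr1, the partner of TLR2 for triacylated lipopeptides, followed another order of gates. It was highest in TBM-like cells, at 115 and 86.5 CPM in the immunized mice, followed by C1q macrophages at 72.0 and 71.6 CPM and inflammatory macrophages at 57.9 and 63.8 CPM. Each of these gates lay above the next in both immunized mice. The log2 fold changes were 1.61 ± 0.20 in TBM-like cells (adjusted p = 3.54e-08), 1.19 ± 0.18 in C1q macrophages (adjusted p = 8.34e-06) and 0.99 ± 0.20 in inflammatory macrophages (adjusted p = 0.000239), each lost only with the summed reference. In the immunized mice Tlr1 was also the member with the highest level in the B cell gate (41.6 and 38.7 CPM) and in both T cell gates (20.6 to 26.5 CPM). In NK cells it stood at 1.39 and 12.5 CPM (1 and 3 UMIs).

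Tlr6, the partner for diacylated lipopeptides, and Tlr4, the receptor for lipopolysaccharide, were lower than Tlr2 and Tlr1. For Tlr6, TBM-like cells had the highest immunized mean but did not lie above the next gate, nonclassical monocytes, in both immunized mice. Nonclassical monocytes held 16.8 and 18.2 CPM, interferon-high monocytes 13.25 and 18.9 CPM and C1q macrophages 14.4 and 15.5 CPM in immunized mice 1 and 2. Tlr6 was called higher in each of these gates too. Tlr6 stood at 14.5 and 24.6 CPM in TBM-like cells and at 11.6 and 22.0 CPM in inflammatory macrophages of the immunized mice. Its log2 fold changes were 1.58 ± 0.38 (adjusted p = 0.00296) and 1.54 ± 0.34 (adjusted p = 0.000955), and without immunized mouse 2 they were 1.43 (adjusted p = 0.213) and 1.18 (adjusted p = 0.448). Tlr4 stood at 18.4 and 30.9 CPM in TBM-like cells, at 14.5 and 20.8 CPM in inflammatory macrophages and at 42.1 and 14.4 CPM (10 and 2 UMIs) in neutrophils. The mice therefore disagreed on which of these gates held the most Tlr4. The log2 fold changes of Tlr4 were 2.46 ± 0.36 in TBM-like cells (adjusted p = 3.16e-06), 2.07 ± 0.35 in inflammatory macrophages (adjusted p = 2.46e-05) and 2.81 ± 0.65 in neutrophils (adjusted p = 0.0032). The call in inflammatory macrophages was lost without immunized mouse 2 (1.91, adjusted p = 0.077) and that in neutrophils without immunized mouse 1 (2.72, adjusted p = 0.602). Cd14, the coreceptor of TLR4, was likewise higher in all 3 gates, at 2.69 ± 0.38 in TBM-like cells, 3.94 ± 0.30 in inflammatory macrophages and 3.91 ± 0.52 in neutrophils. Neutrophil Cd14 was 42.1 CPM in immunized mouse 1 and 373 CPM in immunized mouse 2, the latter in the library of 10 cells with fewer neutrophil markers.

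**Figure D3:**
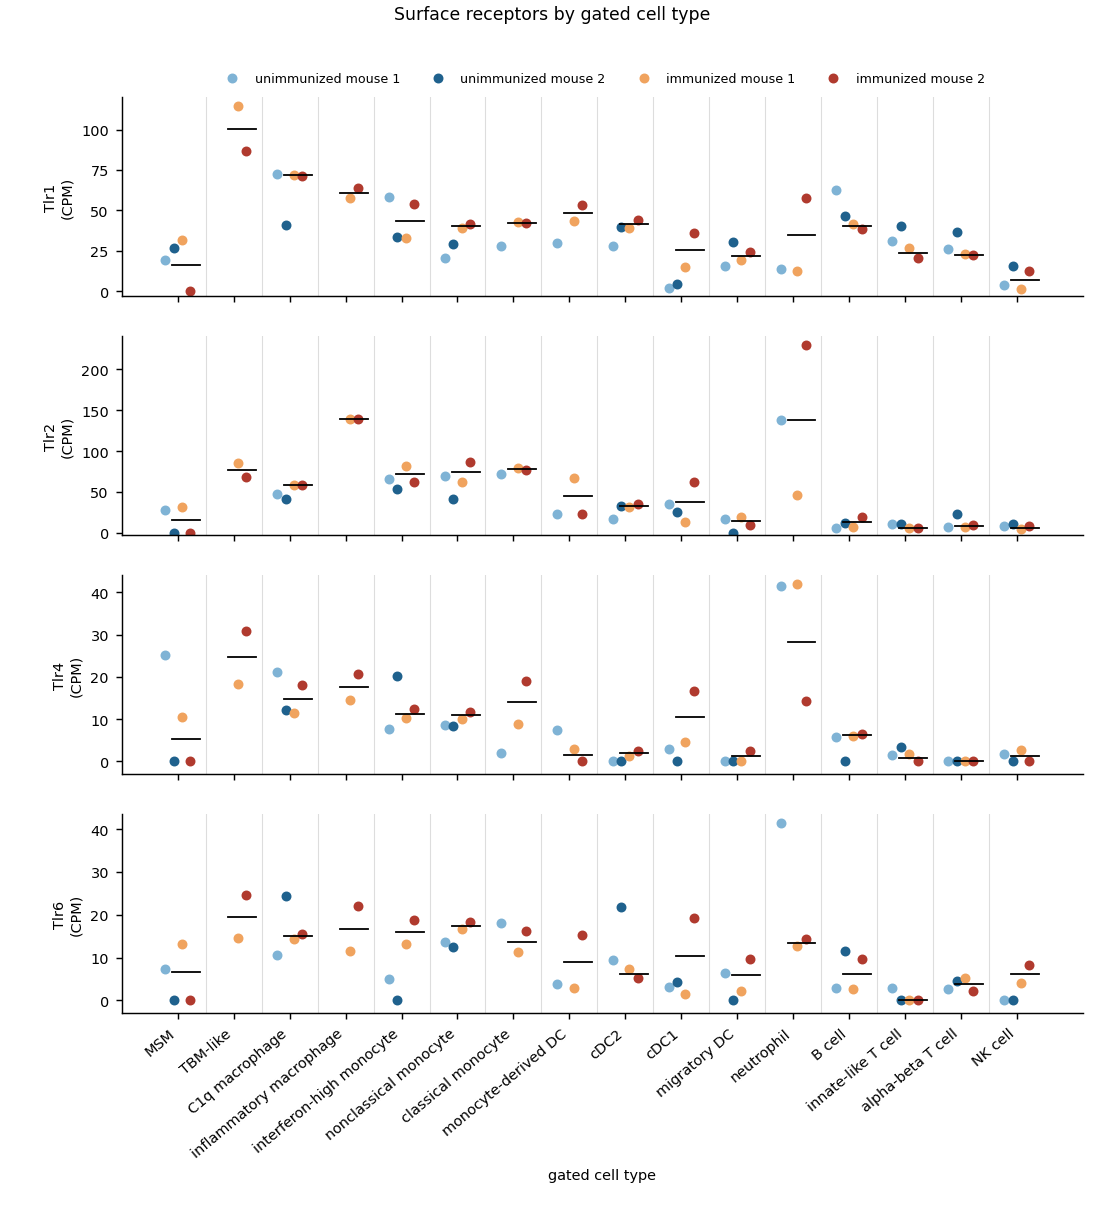
Levels of the surface genes Tlr1, Tlr2, Tlr4 and Tlr6 in CPM, 1 point per mouse (colour) in each marker gate, with the mean of the immunized mice as a black line. Tlr2 is at 139 CPM in inflammatory macrophages of both immunized mice, Tlr1 is highest in TBM-like cells, and Tlr4 and Tlr6 reach at most 42.1 CPM in any library.

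By gate, C1q macrophages had the most members called higher, 8 of 9, with Tlr7 the exception, where 8.8% of all genes were called higher. Interferon-high monocytes had 7 of 9 (all but Tlr1 and Tlr3, background 10.8%) and TBM-like cells had 6 of 9 (Tlr1, Tlr2, Tlr4, Tlr6, Tlr8 and Tlr13, background 9.35%). Nonclassical monocytes had Tlr2, Tlr6, Tlr7, Tlr8 and Tlr13 (5 of 9, background 10.6%), classical monocytes had Tlr2, Tlr4, Tlr7, Tlr8 and Tlr13 (5 of 9, background 9.04%) and neutrophils had Tlr2, Tlr4 and Tlr13 (3 of 9, background 6.16%). Outside MSM, the macrophage and monocyte counts are therefore several times the background. The summed reference leaves 1 of these calls (Tlr7 in nonclassical monocytes). The counts do not rank the gates by level. For their called members, C1q macrophages ranked from 2 (Tlr1) to 7 (Tlr2, Tlr8 and Tlr13) by immunized mean. Their immunized libraries held 5136679 and 15719668 UMIs, against 237806 and 139367 in neutrophils. The part of depth in the counts was not tested. Over all gates, 26 of the 54 calls held without immunized mouse 1 and 28 did not, and 36 held without immunized mouse 2, 12 did not and the 6 of Tlr8 could not be tested. In MSM no member was called, with 8.05% of all genes called higher. The 2 deeper MSM libraries, unimmunized mouse 1 and immunized mouse 1, held 28.1 and 31.8 CPM of Tlr2, 19.2 and 31.8 CPM of Tlr1 and 23.6 and 26.5 CPM of Tlr7, within the range of the other macrophages for Tlr7 and below it for Tlr1 and Tlr2. MSM cells were also the shallowest, with a median of 1998 UMIs per cell.

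Lower calls were found in the lymphoid gates, beside the 2 in migratory DCs. Tlr2 was lower in all 4 lymphoid gates, B cells (-1.74 ± 0.51), innate-like T cells (-2.94 ± 0.72), alpha-beta T cells (-2.23 ± 0.58) and NK cells (-2.93 ± 0.66). Tlr1 was lower in NK cells (-3.27 ± 0.54, adjusted p = 6e-06), as was Tlr7 (-2.48 ± 0.84, adjusted p = 0.0275). Tlr6 in innate-like T cells and Tlr4 in alpha-beta T cells had no UMI in either immunized mouse, where 3 UMIs would equal 5.67 and 15.5 CPM for the first and 5.23 and 6.70 CPM for the second, so no fold is given. The background was 8.63% of genes called lower in B cells (1 of 9 members), 9.02% in innate-like T cells (2 of 9), 9.89% in alpha-beta T cells (2 of 9) and 9.16% in NK cells (3 of 9). All 8 lymphoid calls were lost without immunized mouse 1, with adjusted p = 1 for each, which leaves 1 library of 24 to 62 cells per gate. Without immunized mouse 2 the calls of Tlr6 in innate-like T cells (adjusted p = 0.0642) and Tlr4 in alpha-beta T cells (adjusted p = 1) were lost as well.

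The endosomal members were summed and set against the surface members in each library to ask where endosomal transcripts prevailed. Tlr5 and Tlr12 were left out of these sums. In cDC1 the endosomal share of the UMIs of the 10 members was 89.9%, 91.1% and 88.5% in unimmunized mice 1 and 2 and immunized mouse 1. It was 53.3% in immunized mouse 2, the library with few cDC1 markers. In CPM, endosomal against surface sums were 382 against 42.9, 349 against 34.0, 265 against 34.5 and 153 against 134. Most of these endosomal UMIs came from Tlr3 and Tlr11. Of 374, 82, 177 and 64 endosomal UMIs in the same order of mice, Tlr3 gave 247, 51, 101 and 32. Tlr11 gave 106, 26, 57 and 23, so the cDC1 share largely restates the levels of these genes. The cDC1 gate was the only one of 16 in which the endosomal sum exceeded the surface sum in both immunized mice, and the only one of 11 in which it did so in all 4 mice. With 1 marker more in every gate, as above, the shares were 89.7%, 94.1%, 90.4% and 79.7%. With 1 capture at a time no gate met the condition: the cDC1 library of immunized mouse 2 then had an endosomal sum that did not exceed the surface sum (capture 1) or fewer than 10 cells (capture 2).

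In 13 of the 16 gates the surface sum was the larger in both immunized mice, in nonclassical monocytes the mice differed, and the MSM library of immunized mouse 2 held no TLR UMI. The endosomal share in nonclassical monocytes was 61.4% and 65.1% in the unimmunized mice and 52.1% and 38.4% in the immunized mice, so the conditions did not overlap. The endosomal sum was 178 and 171 CPM in the unimmunized and 140 and 98.1 CPM in the immunized mice, and the surface sum was 112 and 91.6 CPM in the unimmunized and 129 and 158 CPM in the immunized mice. Inflammatory macrophages had a share of 16.3% in immunized mouse 1 and 18.5% in immunized mouse 2, the lowest of the myeloid gates in both. TBM-like cells had 25.9% and 28.4%. Tlr12, an endosomal gene outside the members, would raise the TBM-like share. It had 22 and 126 UMIs there, beside 62 and 200 endosomal member UMIs. No p is given for these sums, which describe the libraries.

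**Figure D4:**
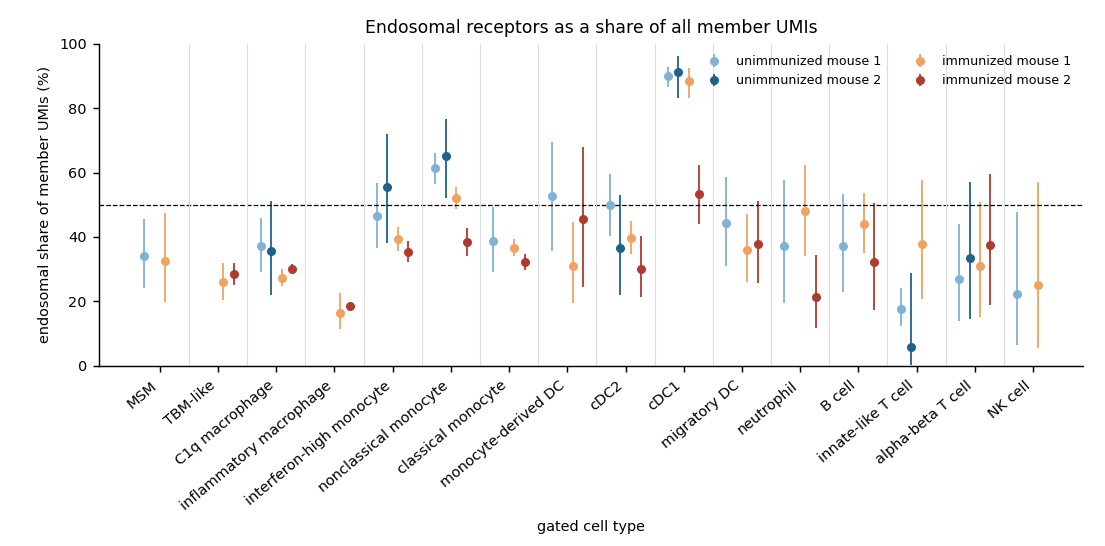
Share of the UMIs of the 10 members that came from the 6 endosomal members, in percent, for each marker gate. Each mouse is 1 point with its exact 95% binomial interval. Libraries with fewer than 10 member UMIs are left out and the dashed line is at 50%. The cDC1 points of 3 mice lie at 88.5% to 91.1% and that of immunized mouse 2 at 53.3%, while inflammatory macrophages lie at 16.3% and 18.5%.

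Immunization was tested within the 11 gates that had 2 libraries in each condition. In edgeR (quasi-likelihood, Benjamini-Hochberg adjusted), 0 of 99 member and gate pairs passed, 11 had an unadjusted p under 0.05, and DESeq2 also called 0. Of all 10794 genes, 450 (NK cells) to 1088 (interferon-high monocytes) per gate had an unadjusted p under 0.05 in edgeR. Over all genes and gates 0.0733% passed, so few genes of any kind did at this number of mice. All gates of a mouse share that animal, and p-values treat its libraries as independent. The smallest p belonged to Tlr1 in cDC1, which stood at 2.04 and 4.25 CPM in the unimmunized mice and at 15 and 36.0 CPM in the immunized mice and did not pass (log2 fold change 3.19 ± 0.74, adjusted p = 0.0834, edgeR). The counts behind it were 2, 1, 10 and 15 UMIs. With 1 marker more in every gate they were 2, 0, 3 and 2 UMIs, at 2.02 and 0 CPM in the unimmunized and 4.93 and 12 CPM in the immunized mice, where no test was made. The same pair passed in edgeR with a stricter hashtag assignment (3.55, adjusted p = 0.0302) and without the filter on low counts (3.15, adjusted p = 0.00552). The 15 UMIs came from the cDC1 library of immunized mouse 2. That library had few cDC1 markers (844 CPM) and 88.7 CPM of inflammatory macrophage markers. Without immunized mouse 1 the log2 fold change was 3.70, and its immunized side rests on that library alone. The part of marker level in the Tlr1 value was not tested.

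For Tlr3 in cDC1 the immunized against unimmunized log2 fold change was -1.02 ± 0.33 (adjusted p = 0.32, edgeR). For Tlr7 it was -1.07 ± 0.46 in interferon-high monocytes (adjusted p = 0.417) and -1.23 ± 0.57 in cDC2 (adjusted p = 0.833), and none of these passed. Without immunized mouse 1, so that the contrast rests on immunized mouse 2, Tlr3 in cDC1 became -1.75 (adjusted p = 0.00274) and Tlr7 in interferon-high monocytes -1.53 (adjusted p = 0.0193). Immunized mouse 2 is the mouse whose cDC1 library had few cDC1 markers. Its nonclassical monocytes also had fewer of their own markers, 741 CPM in sum against 1141 CPM in immunized mouse 1 and 1570 and 1575 CPM in the unimmunized mice. Tlr7 UMIs per UMI of Ace, a marker of these monocytes, were 0.270 and 0.253 in the unimmunized mice, and the immunized mice had 0.296 and 0.367. The part of marker level in the TLR values was not tested.

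Counting libraries rather than fitting them, both immunized mice lay above both unimmunized mice in 18 of 99 pairs (18.2%) and below them in 15 (15.2%), where the background over all genes and gates was 15.9% above and 19.6% below. The surface members were above in 10 of 44 pairs and below in 5, and the endosomal members were above in 8 of 55 and below in 10. Tlr7 was below in 5 of 11 gates (C1q macrophages, interferon-high monocytes, nonclassical monocytes, cDC2 and alpha-beta T cells) and above in none. In C1q macrophages the Tlr7 levels were 28.2 and 20.4 CPM in the unimmunized and 19.9 and 12.7 CPM in the immunized mice, and in cDC2 they were 22.9 and 25.4 CPM against 11.5 and 3.87 CPM. Tlr4 was above in 4 of 11 gates and below in none, at levels of at most 16.8 CPM, that of the immunized mouse 2 cDC1 library with few cDC1 markers. In unimmunized mice 1 and 2 and immunized mice 1 and 2 its UMIs numbered 12, 2, 33 and 22 in nonclassical monocytes. They were 0, 0, 4 and 2 in cDC2, 3, 0, 3 and 7 in cDC1, and 2, 0, 7 and 2 in B cells. In B cells of unimmunized mouse 2, 3 UMIs would equal 34.8 CPM. All gates were compared with the same 2 unimmunized mice.

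**Figure D5:**
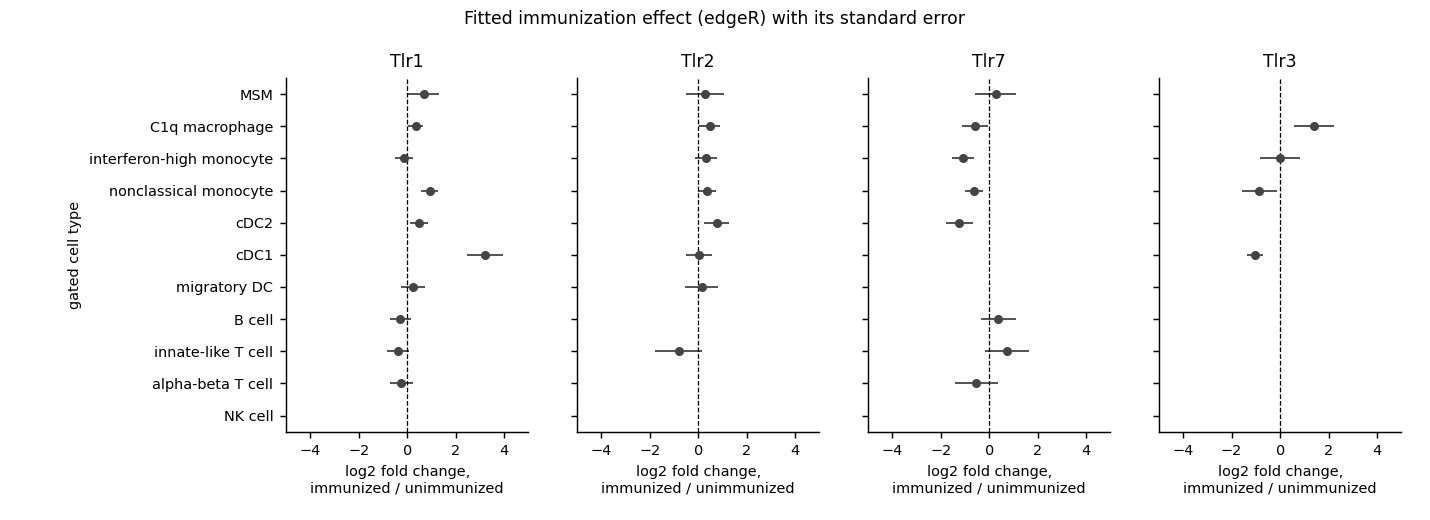
Immunized against unimmunized log2 fold change (edgeR) of Tlr1, Tlr2, Tlr7 and Tlr3 in the 11 gates with 2 mice per condition, with bars of 1 SE; gates with fewer than 20 UMIs of the gene over the 4 mice, or with none in 1 condition, are left out. Tlr1 in cDC1 (3.19 ± 0.74) lies farthest from 0, with 15 of its UMIs from the immunized mouse 2 library with few cDC1 markers. Tlr7 lies below 0 in interferon-high monocytes (-1.07 ± 0.46) and cDC2 (-1.23 ± 0.57), and none of the points passed the adjusted threshold.

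Whether the effect of immunization in a gate differed from the mean effect in the other gates was tested directly as an interaction. None of the 99 pairs passed and 7 had an unadjusted p under 0.05, with 0.000842% of all genes and gates passing. Of all 10794 genes, 247 (nonclassical monocytes) to 550 (migratory DCs) per gate had an unadjusted p under 0.05 in edgeR. Tlr1 in cDC1 had the smallest p (difference of log2 fold changes 3.06 ± 0.76, adjusted p = 0.328, edgeR), and it passed without the low-count filter (3.03, adjusted p = 0.0406). Without immunized mouse 1 the difference was 4.26. Its immunized cDC1 value then rests on the immunized mouse 2 library with few cDC1 markers. For Tlr3 in cDC1 the difference was -1.67 ± 0.63 (adjusted p = 1).

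The genes whose mean levels over the 16 gates in the immunized mice followed each member most closely (Pearson's r of log2(CPM + 1), 10470 genes, a description over libraries that share mice) differed between members. Tlr2 ran with Pla2g7 (r = 0.97), Ptafr (0.962), the receptor of platelet-activating factor, and Msr1 (0.961), a macrophage scavenger receptor. Tlr11 ran with Amz1 (0.922), Cyp27a1 (0.911) and Batf3 (0.905), a transcription factor required for cDC1 development. Tlr13 ran with Rbm47 (0.933), Ifih1 (0.924), which encodes the cytosolic RNA sensor MDA5, and Adam15 (0.923). Tlr4 followed Fcgr4 (0.93), Tlr6 followed Il10ra (0.947) and Tlr8 followed Fgd4 (0.932) and F13a1 (0.923), the last a marker of the classical monocyte gate. Tlr3 and Tlr7 had no partner above 0.847 (Gm43914) and 0.84 (Trem2). Among the members themselves Tlr2 and Tlr13, a surface and an endosomal gene, were the closest pair (r = 0.89), and Tlr7 and Tlr11 were the farthest apart (r = -0.068).

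Of 7 lists of pathway genes (coreceptors, chaperones and trafficking, endolysosomal proteases, adaptors, kinases and ligases, transcription factors and inhibitors), 71 genes were tested. Inflammatory macrophages had the most called higher, 36 with 0 lower (background 12.2% and 2.72%, median log2 fold change 0.60). The inhibitors were 10 of 13 of the list, among them Tnip3 (3.65 ± 0.30), Dusp1 (2.35 ± 0.24) and Socs3 (2.04 ± 0.21), which restrain NF-kappaB, MAP kinase and cytokine signals. This gate selects cells on inflammatory genes (Nos2, Acod1, Inhba, Ptgs2 and Il1a). The part of that selection in the counts was not tested. Migratory DCs were similar in the inhibitor list, with 9 of 13 higher (median 1.41, against 1.08 in inflammatory macrophages). They had 25 of 71 genes higher and 13 lower (background 20.7% and 10.4%). Dusp1 was also higher in migratory DCs (2.68 ± 0.26) and neutrophils (3.91 ± 0.32). Nonclassical monocytes had 30 higher and 0 lower (background 10.6% and 2.2%, median 0.52), with 3 of 5 adaptors. Ticam2 (2.22 ± 0.34), the bridging adaptor of TLR4, and Slc15a4 (1.30 ± 0.22), an endolysosomal transporter needed for TLR7 and TLR9 signals, were among them. TBM-like cells had 23 higher and 1 lower (background 9.35% and 1.58%, median 0.29), with all 4 endolysosomal proteases tested, led by Lgmn (3.16 ± 0.16), Ctsl (2.33 ± 0.20) and Ctsb (2.02 ± 0.18). The proteases were also 4 of 4 higher in C1q and inflammatory macrophages.

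The pathway in cDC1 went both ways, with 7 of 71 genes higher and 7 lower, where 6.95% and 1.95% of all genes were (median -0.12). Rab7b, a small GTPase of late endosomes, was higher by 5.29 ± 0.34, Cd36, a scavenger coreceptor, by 4.35 ± 0.49, Irf8, a cDC1 lineage factor, by 2.63 ± 0.17 and Cd180, an LPS-response regulator, by 1.73 ± 0.25. Lgmn (-2.10 ± 0.39), a protease that cleaves endosomal TLRs, and Ikbke (-1.74 ± 0.57), a kinase upstream of interferon genes, were lower. No adaptor of 5 and no protease of 4 was called higher in cDC1. In the lymphoid gates 19 of 71 were lower in B cells (background 8.63%, median -0.27), 27 in innate-like T cells (9.02%, median -0.87), 32 in alpha-beta T cells (9.89%, median -0.94) and 27 in NK cells (9.16%, median -0.72). B cells had 10 higher and alpha-beta T cells 6 (background 14.5% and 16.3%). All 4 proteases were lower in both T cell gates and in NK cells, and Sigirr, an inhibitor of TLR signalling, was higher in all 4 lymphoid gates (2.43 to 3.47). Over all genes tested the median log2 fold changes were between -0.18 in neutrophils and 0.09 in cDC2.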

How the data were processed

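The authors aligned the reads to mm10 and counted them with Cell Ranger 4.0.0, combined the captures with its aggregation step, and deposited UMI counts per gene and barcode; hashtag and antibody counts were deposited in separate tables, and the 6 surface antibodies were not used here. A barcode was given to a mouse when 1 hashtag held at least 80% of its hashtag counts and at least 10 of them. This was also the only doublet step before gating. Barcodes whose sequence occurred in both captures (621 sequences, 1242 barcodes) and cells with over 25% mitochondrial UMIs (1425) were left out. Of the rest, 3994 cells met no gate and 245 met gates of several lineages, and neither group entered the 57 libraries. The second group includes, by rule, lymphoid cells that also met most of the macrophage, monocyte or DC gates. It also takes cDC1 and migratory DCs that met the MSM, TBM-like or C1q macrophage gate. Those that met the inflammatory macrophage gate or a monocyte gate stayed in their DC gate. Leaving the second group out can also remove doublets. Other cells that met several macrophage, monocyte or DC gates went to the first in a fixed order. The order was MSM, inflammatory, TBM-like and C1q macrophages, nonclassical and interferon-high monocytes, cDC2, monocyte-derived DCs and classical monocytes.

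Counts were summed per mouse and gate, normalized by TMM and fitted in 1 model with edgeR 4.0.16 (quasi-likelihood test in R 4.3.3, 10794 genes after the low-count filter, 27 residual degrees of freedom), with Benjamini-Hochberg adjustment over all genes of a contrast at 0.05. Cell types were compared in the immunized mice, which hold most cells. The fit was run on simulated counts drawn for each library independently, so that run does not test p-values where gates share a mouse. CPM are per 1000000 UMIs of the summed library, and the 95% intervals are exact binomial and cover counting error only. Summed libraries held 23446 to 15719668 UMIs, and values from the deeper ones are the more precise.

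Unimmunized and immunized mice of the same number are different animals. The libraries of the different gates of 1 mouse share that animal. The correlation of their deviations from the group means, over 3493 genes, had a median of 0.143 in the immunized mice (16 gates, lowest -0.118) and 0.023 in the unimmunized mice (11 gates, lowest -0.157), and mouse as a block was an alternative. Other alternatives changed the hashtag rule, the mitochondrial limit, the gates, the cell minimum, size factors, the filter, the test (DESeq2 1.42.0), the capture, the depth per cell, the doublet score, the reference and the mice. The members, gene lists and contrasts were chosen with earlier results of these data known, and the number of markers each gate needs was set after marker UMIs were examined. All members are named, and pathway genes are the up to 6 with the largest fold change of a gate among those called.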

Additional observations from a re-analysis of the deposited data

Results flagged for a closer look

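The cells that met no gate entered none of the comparisons, and 8 of the 10 members were above 3 UMIs in them in all 4 mice (944, 233, 1260 and 1557 such cells of unimmunized mice 1 and 2 and immunized mice 1 and 2). Tlr1 and Tlr2 were the highest there, except in unimmunized mouse 2, where Tlr7 (30 UMIs) was just above Tlr2 (29 UMIs). Tlr1 stood at 23.8 and 32.1 CPM in the unimmunized and at 41.4 and 52.2 CPM in the immunized mice, and Tlr2 at 20.8 and 20.3 CPM against 46.0 and 60.3 CPM. Tlr7 stood at 12.8 and 21.0 CPM in the unimmunized and at 17.3 and 14.2 CPM in the immunized mice, which overlapped. Tlr3 ranged from 2.80 to 5.83 CPM, far below its cDC1 level. Tlr9 and Tlr11 were the members that did not pass 3 UMIs in every mouse, both with 3 UMIs in unimmunized mouse 2. The cell types behind these values were not tested.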

How the results depend on the processing

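Of the 54 called pairs of member and cell type, 2 held in every alternative that could be computed (Tlr3 in cDC1 and Tlr7 in nonclassical monocytes), 15 were lost in 1, 24 in 2 or 3 and 13 in 4 or more. The number of pairs called was 31 in capture 2 only, 15 with each cell thinned to 1000 UMIs and 29 with the summed reference, and it ranged from 28 (without immunized mouse 1) to 52 as each mouse was left out. A mouse left out leaves its gates with 1 library, which is assumed to vary like the others. With the summed reference 7 pairs changed sign: Tlr2 (-0.17), Tlr13 (-0.10) and Tlr8 (-0.024) in C1q macrophages, Tlr8 in inflammatory macrophages (-0.022), Tlr4 (-0.09) and Tlr11 (-0.002) in interferon-high monocytes, and Tlr13 in cDC2 (-0.003). Thinning turned Tlr11 in cDC1 to -2.47, since no Tlr11 UMI was left there in the immunized mice. With the mouse as a replicate block, which pairs libraries of the same animal, 62 pairs were called, including all 54, and the interaction still called 0. No block was possible for immunization, since each mouse lies in 1 condition.

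The count of immunization calls was 1 with the stricter hashtag rule, 1 without the low-count filter and 0 to 3 as each mouse was left out, and that of the interaction was 1 without the filter and 0 to 1 as each mouse was left out. The number of gates with the endosomal sum above the surface sum in the immunized mice was 0 with stricter gates, 0 in capture 1 only, 0 in capture 2 only and 1 to 2 as each mouse was left out. The causes were not tested, except that cDC1 of immunized mouse 2 had fewer than 10 cells with stricter gates and in capture 2. In that mouse 1 more marker in every gate with those cells kept, chosen after seeing the data, moved Tlr3 from 76.7 to 174 CPM and Tlr11 from 55.1 to 89.9 CPM. Depth limits Tlr8, Tlr9, the MSM gate and lymphoid levels, where a value can rest on under 10 UMIs.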

Other observations

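Tlr12 and Tlr5, which are in the matrix but not among the 10 members, had patterns of their own. Tlr12, an endosomal receptor that also binds profilin, was higher in TBM-like cells (29.0 and 52.6 CPM in immunized mice 1 and 2, log2 fold change 3.29 ± 0.42, adjusted p = 1.86e-07, edgeR). It was also called in C1q macrophages (10.9 and 33.9 CPM, 2.39 ± 0.41) and in cDC1 (22.5 and 21.6 CPM, 2.33 ± 0.66, adjusted p = 0.0176). In cDC1 the unimmunized mice held 18.4 and 25.5 CPM of Tlr12, so the conditions overlapped there. In C1q macrophages they held 10.6 and 8.15 CPM (6 and 2 UMIs). The first of these was close to the 10.9 CPM of immunized mouse 1. Tlr5, the flagellin receptor, was at most 8.04 CPM in the immunized libraries. It was called in cDC2 (2.21 ± 0.67, adjusted p = 0.0281) and C1q macrophages (1.79 ± 0.58, adjusted p = 0.0406).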
